A study of Mus musculus with 16 samples.

Results

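The comparison described here set 4 liver libraries labelled AKR1B10 knockdown with berberine against 4 negative-control liver libraries with berberine, which are 8 of the 16 libraries of the series. The libraries were chosen by their labels alone, and the genes were all those with at least 1 FPKM (fragments per kilobase of transcript, scaled to library size) in at least 4 of the 16 libraries, which are 10846 of the 55401 genes in the table. Each library is poly(A) RNA from mouse liver. The titles name mice with a running number and do not say whether a library is 1 mouse or a pool. Both groups also carry an adeno-associated virus vector as far as the AAV in their sample names says. The treatment is abbreviated to BBR in the labels and is read as berberine from the title of the series. Strain, age, sex, diet, dose, route, the knockdown sequence, the promoter of the vector and the cells it reaches are not given in the sources used here. Both groups received the treatment, so a difference between them is one of the vector label under treatment and not one of berberine itself. The other 8 libraries, which are the same pair of labels without berberine, entered the fit for the spread between libraries and 1 further test.

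AKR1B10 turns aldehydes and retinal into alcohols at the expense of NADPH, and berberine is a plant alkaloid used to lower blood lipids and glucose. Hepatocytes meet feeding by switching on genes of glucose uptake and fat synthesis, and meet unfolded protein in the cytosol by switching on chaperone genes through heat shock factor 1. Chaperones of the HSP70 family bind unfolded chains, HSP40 proteins deliver the chains to them, and HSP90 with its partners finishes the folding of kinases and receptors.

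Akr1b10, the mouse gene with the symbol in the label (ENSMUSG00000061758; mm10, chromosome 6, 34384218 to 34396950, plus strand, protein-coding), did not have its lower level under the knockdown label. It had 0.527, 0.389, 0.458 and 0.427 FPKM in the knockdown-labelled libraries with berberine, against 0.194, 0.427, 0.565 and 0.252 FPKM in the negative controls with berberine. The ranges overlapped, and the means were 0.451 ± 0.058 and 0.359 ± 0.169 FPKM in that order of groups (SD, n = 4 each). Akr1b3, which encodes aldose reductase, had the lower mean in the knockdown-labelled libraries, 0.343 ± 0.111 FPKM against 0.591 ± 0.097 FPKM in the negative controls (SD, n = 4 each), and its groups did not overlap. The two-sided exact permutation test gave p = 0.0286 for Akr1b3, the smallest that 70 splits allow, and 0.371 for Akr1b10, or 0.114 and 0.495 after Benjamini-Hochberg adjustment over the 4 genes of the family. Akr1b8, a relative induced by growth factors in cell culture, had means of 0.854 and 0.746 FPKM. Akr1b7, known from the adrenal and vas deferens, had means of 0.067 and 0.243 FPKM on 0 to 25 counts a library. Because the mRNA level does not go with the label, the libraries are called by their label throughout.

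The knockdown-labelled libraries were shallower, with 46273129 to 54394727 counts against 54570970 to 63244096 in the negative controls, and the 2 ranges do not overlap. Mitochondrially encoded genes took 11.9% to 15.9% of the counts in the knockdown-labelled libraries and 10.98% to 13.4% in the negative controls. The liver label fitted the genes present: all 12 hepatocyte markers listed (such as Alb, Ttr and Apoa1) were measured, with summed levels of 39629 to 47564 FPKM against 40861 to 44873 FPKM. In bulk tissue, fewer cells of a type and less RNA per cell cannot be told apart. The part of depth in the differences that follow was not tested, and nothing says whether 1 mouse gave more than 1 extraction.

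No gene passed the test across all genes. After Benjamini-Hochberg adjustment, 0 of 10846 genes (0%) had an adjusted p under 0.05 in edgeR's quasi-likelihood test, and the smallest adjusted p was 0.679. At an unadjusted p under 0.05 there were 496 genes (4.57%), 258 with the higher mean in the knockdown-labelled libraries (2.38%) and 238 with the lower (2.19%), where evenly spread p-values would give 542.3. Knockdown-labelled library 4 of the pair without berberine enters this fit for the spread between libraries. Without it the count was 795 (7.33%), again with 0 genes called and a smallest adjusted p of 0.247 in the same quasi-likelihood test. That library stood apart, with 35.4% of its counts in mitochondrially encoded genes, against 11.2% to 15.4% in the other 3 of its group. DESeq2 called 5 genes, which are described below.

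**Figure D1:**
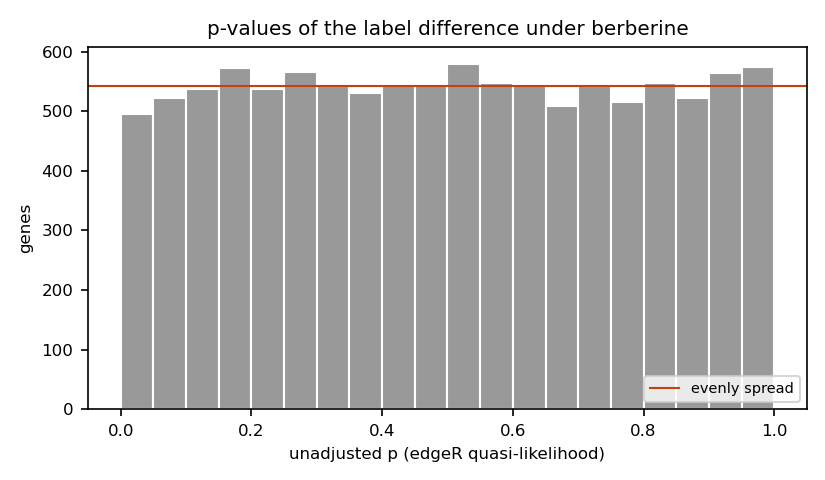
Number of genes (y axis) by unadjusted p of edgeR's quasi-likelihood test (x axis, 20 bins) for the knockdown label over the negative control, both with berberine. The bars hold 496 to 579 genes, the lowest being the one nearest 0, beside the line at 542.3 that even spreading gives.

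The 4 libraries of each group kept apart in 473 genes by FPKM (4.36%), of which 325 were higher (3.00%) and 148 lower (1.36%) in the knockdown-labelled libraries. The split depends on the scaling. In library-scaled counts (CPM) with TMM factors, which centre most genes on no change, 498 genes kept apart, 252 higher (2.32%) and 246 lower (2.27%), so the higher share was 50.6% in place of 68.7% in FPKM. The median gene was 0.0574 higher on the log2 FPKM scale, and 362 genes kept apart on both scales. Fitted log2 changes are on the TMM scale, where the median over all genes was -0.0053 and 49.0% lay above 0 and 51.0% below. Gene length, as implied by the counts and FPKM, went with the fitted change. The implied length need not be that of a single transcript. Its rank correlation with the change across the 10846 genes was 0.179, as a description of genes that share the same 8 libraries. The median log2 change was -0.081 in the 2170 genes of shortest implied length and 0.058 in the 2169 of longest. Single libraries did not follow the groups. In the shortest genes the library medians, relative to the mean of the 8 libraries, ran from -0.140 (library 4) to 0.248 (library 2) in the negative controls. The knockdown-labelled libraries ran from -0.097 to 0.094 there. In the label comparison without berberine the same correlation was -0.023.

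The genes with the smallest p among those kept apart were named by rule, 12 in each direction, keeping to genes at 5 FPKM or more on average in the group with more. The higher ones described here are Txndc5, Hspa8, Entpd8, Angptl8, Sgf29, Dnajb1, Decr2, Rps27rt, Nr1i2, Fgf21 and Slc12a7. The lower ones were Mup-ps22, Lpl, Got1, Derl2, Trmt112, Nsmce1, Nat8, Rps2-ps10, Tprkb, Tstd3, Mfsd1 and Asb8. They were chosen by these values, so the values are a description, and none passed the quasi-likelihood test of edgeR (Benjamini-Hochberg adjusted p of 0.679 for Txndc5 and Hspa8 and 0.995 for the others).

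Several of these genes serve gene control, transport or RNA modification and belong to no list described below. Sgf29, a chromatin reader of the SAGA complex, had 12.1, 10.1, 8.62 and 10.4 FPKM in the knockdown-labelled libraries, against 7.31, 6.42, 6.66 and 7.44 FPKM in the negative controls. Slc12a7, a potassium chloride cotransporter, averaged 8.02 ± 1.51 FPKM against 4.33 ± 1.12 FPKM (SD, n = 4 each), and Entpd8 averaged 27.9 ± 3.5 FPKM against 15.3 ± 2.6 FPKM. Among the lower genes, Nsmce1, a subunit of the SMC5/6 DNA repair complex, averaged 6.16 ± 0.71 FPKM against 9.71 ± 1.70 FPKM (SD, n = 4 each). Trmt112, a partner of several methyltransferases, had 18.0, 17.5, 15.1 and 17.6 FPKM against 18.1, 30.8, 22.5 and 26.9 FPKM, so that negative-control library 1 lay next to the knockdown-labelled range. Differences could also be small where the libraries were tight: Tprkb, of the KEOPS complex that modifies transfer RNA, averaged 17.2 ± 1.0 FPKM against 21.1 ± 2.0 FPKM, and Mfsd1, a lysosomal transporter, 11.8 ± 0.6 FPKM against 14.4 ± 0.7 FPKM (SD, n = 4 each).

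**Figure D2:**
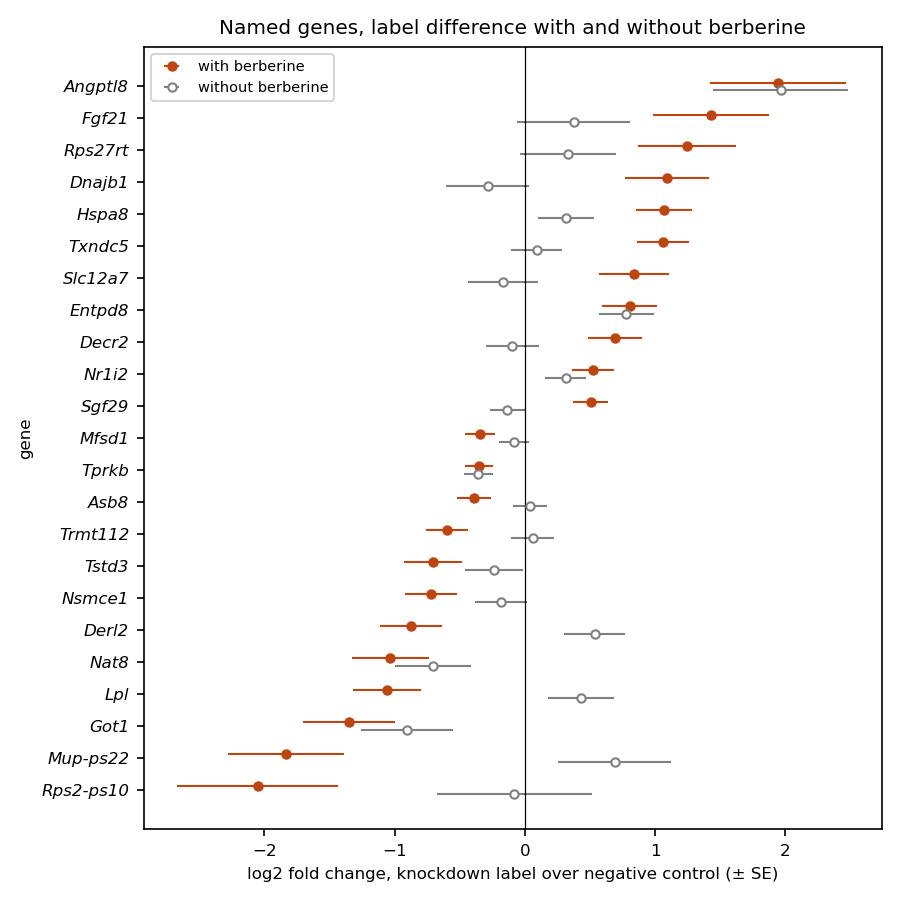
log2 fold change with its SE from edgeR (x axis) of 23 named genes (y axis), knockdown label over negative control, with berberine (filled) and without it (open). Angptl8 sits at 1.95 and 1.96 and Entpd8 at 0.81 and 0.78, while Lpl sits at -1.06 with berberine and 0.43 without it. Each Angptl8 point leans on 1 high knockdown-labelled library. The filled points were chosen to lie away from 0.

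Chaperone genes of the heat shock response had higher means in the knockdown-labelled libraries, and their median did not rest on any 1 of the 8 libraries. Of 18 listed genes, all 18 were measured and 15 had a higher mean in the knockdown-labelled libraries, with a median log2 change of 0.50 against -0.0053 over all genes. At an unadjusted p under 0.05, 8 of the 18 were higher and 0 lower, where 2.38% and 2.19% of all genes were. By FPKM 6 of them kept apart with the knockdown-labelled libraries higher, where 3.00% of all genes did, and by CPM 7 did, where 2.32% of all genes did. The mean log2 level of the list was taken relative to its mean over the 8 libraries with berberine, so the groups average to opposite sides of 0. It ran from 0.10 to 0.65 in the knockdown-labelled libraries and from -0.57 to -0.13 in the negative controls, with no overlap. Without any single one of the 8 libraries the median lay between 0.43 and 0.60.

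Hspa8, the constitutive HSP70 of the cytosol (ENSMUSG00000015656; mm10, chromosome 9, 40800984 to 40810087, plus strand, protein-coding), was the most abundant gene of this list. It had 362, 419, 322 and 437 FPKM in the knockdown-labelled libraries, against 123, 158, 223 and 204 FPKM in the negative controls. The lowest of the first 4 lies well above the highest of the other 4. Its log2 fold change was 1.07 (SE 0.22), with an adjusted p of 0.679 (edgeR quasi-likelihood test, Benjamini-Hochberg) and 0.00491 by DESeq2. Of the 150-base windows of its transcripts, 23.02% also occur in other genes, mainly unnamed loci of the annotation, so its level is uncertain to that extent.

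The stress-induced HSP70 genes lay at lower levels and spread more. Hspa1b had 14.7, 27.6, 10.7 and 19.9 FPKM in the knockdown-labelled libraries, against 1.60, 3.19, 8.81 and 2.58 FPKM in the negative controls. Hspa1a had 2.36, 4.62, 3.46 and 0.953 FPKM, against 0.098, 0.1704, 0.747 and 0.066 FPKM. In both genes the knockdown-labelled libraries were above all negative controls, and negative-control library 3 was the highest of its group. The log2 fold changes were 2.11 (SE 0.81) for Hspa1b and 3.31 (SE 0.97) for Hspa1a, with an adjusted p of 0.995 for each (edgeR quasi-likelihood test, Benjamini-Hochberg). The 2 genes are near-identical neighbours on chromosome 17, with 46.0% of the windows of Hspa1a and 40.5% of those of Hspa1b found in the other gene or in nearby loci, so the split between them is uncertain.

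The co-chaperones went the same way. Dnajb1, the HSP40 that stimulates HSP70, had 12.6, 16.6, 9.18 and 11.6 FPKM in the knockdown-labelled libraries, against 4.25, 4.85, 8.30 and 5.02 FPKM in the negative controls. Dnaja1, another HSP40, had 25.2, 30.7, 23.2 and 29.6 FPKM, against 13.8, 11.8, 17.0 and 21.02 FPKM. Both genes kept apart, and their log2 fold changes were 1.09 (SE 0.32) and 0.72 (SE 0.27). Hsph1, a nucleotide exchange factor for HSP70, had 8.43, 11.2, 4.07 and 7.86 FPKM against 1.95, 2.09, 4.24 and 3.90 FPKM, so that knockdown-labelled library 3 fell within the control range. Chordc1, an HSP90 partner, averaged 5.03 ± 1.32 FPKM in the knockdown-labelled libraries and 2.97 ± 0.71 FPKM in the negative controls (SD, n = 4 each). Bag3, which couples HSP70 to autophagy, had 16.6, 13.6, 9.55 and 9.62 FPKM against 8.06, 7.49, 8.56 and 7.22 FPKM.

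Not every chaperone shared the difference. The mitochondrial chaperonin genes Hspd1 and Hspe1 had log2 fold changes of -0.04 (SE 0.22) and -0.20 (SE 0.25), with 90.1 to 139 FPKM against 91.6 to 120 FPKM for Hspd1. Hsp90ab1, the constitutive cytosolic HSP90, differed by a log2 fold change of 0.21 (SE 0.23), and Hsp90aa1, its inducible relative, by 0.85 (SE 0.50). Hsf1, the transcription factor of the response, differed by 0.26 (SE 0.19) in log2. Cryab, a small heat shock protein, had -0.44 (SE 0.46), and 6.15 FPKM in negative-control library 2 against 1.298 to 2.15 FPKM in the other 3 negative controls.

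**Figure D3:**
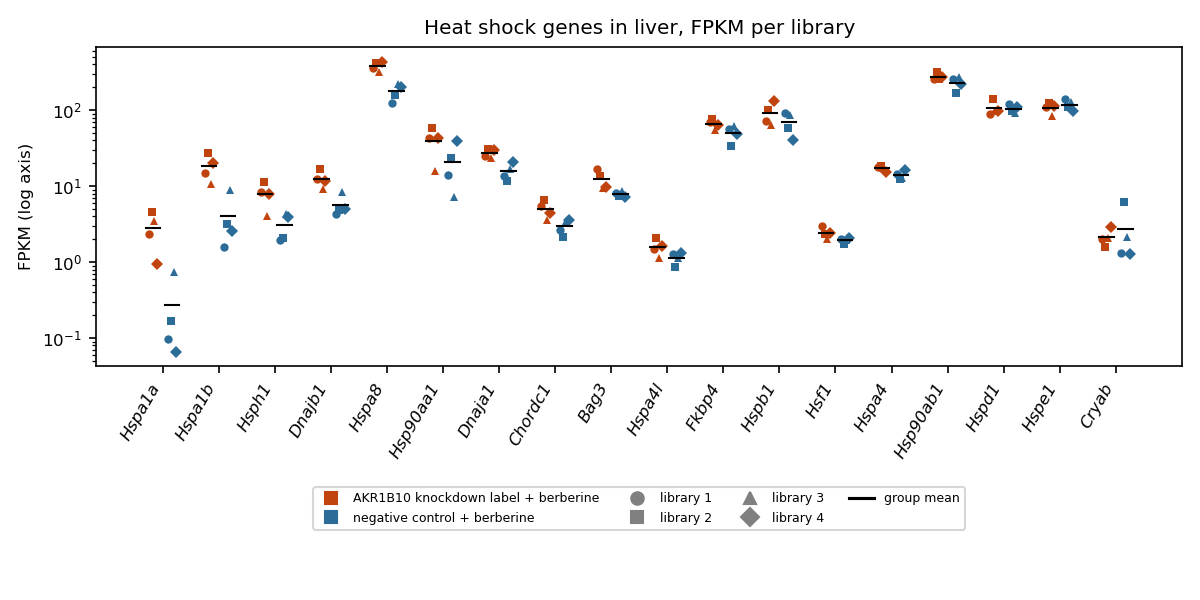
FPKM on a log axis (y axis) of the 18 heat shock genes (x axis, ordered by log2 change) in the 4 knockdown-labelled and the 4 negative-control libraries with berberine; marker shapes are library numbers and bars are group means. Hspa1a, Hspa1b, Dnajb1, Hspa8, Dnaja1 and Bag3 show 4 knockdown-labelled libraries above 4 negative controls, while Hspd1 and Hspe1 overlap.

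The promoters of these genes are shown because heat shock factor 1 binds repeats of a 5-base unit with GAA in its middle, NGAAN, in alternating orientation. The RefSeq promoter table (GRCm38.p6) holds 250 bases before to 50 bases after each start, and 13 of the 18 genes matched it; Hspa8, Hsp90aa1, Hsp90ab1, Hsf1 and Cryab had no entry. A run of 3 units, GAANNTTCNNGAA or TTCNNGAANNTTC on the printed strand, which are one motif read on both strands, was searched with overlapping matches counted. It occurred in 4 of the 13 genes (30.8%), namely Chordc1, Hsph1, Hspe1 and Hspd1, and in 0.662% of the 27025 genes in the table. Exons of Hspe1 and Hspd1 overlap on opposite strands, and each gene has 2 matches, so the same bases may count for both. Hsph1 and Chordc1 had higher means in the knockdown-labelled libraries, and Hspe1 and Hspd1 had not. Capitals mark the matches in the windows of Chordc1 (chr9:18292017-18292316, plus strand, 3 overlapping matches), Hsph1 (chr5:149636266-149636565, minus strand, 1 match), Hspe1 (chr1:55087898-55088197, plus strand, 2 overlapping matches) and Hspa1a (chr17:34972107-34972406, minus strand, 0 matches), printed 5′ to 3′ in the direction of the gene.
Chordc1: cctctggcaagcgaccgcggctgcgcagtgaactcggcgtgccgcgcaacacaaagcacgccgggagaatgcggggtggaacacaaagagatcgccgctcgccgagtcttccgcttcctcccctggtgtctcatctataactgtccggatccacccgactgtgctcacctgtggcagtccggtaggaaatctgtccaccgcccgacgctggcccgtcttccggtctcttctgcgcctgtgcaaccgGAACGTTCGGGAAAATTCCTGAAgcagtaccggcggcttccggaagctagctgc
Hsph1: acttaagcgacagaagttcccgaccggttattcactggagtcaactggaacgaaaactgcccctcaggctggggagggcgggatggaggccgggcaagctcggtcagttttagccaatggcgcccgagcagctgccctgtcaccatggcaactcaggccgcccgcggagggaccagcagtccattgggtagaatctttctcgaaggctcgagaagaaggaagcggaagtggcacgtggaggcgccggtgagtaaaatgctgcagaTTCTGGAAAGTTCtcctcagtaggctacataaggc
Hspe1: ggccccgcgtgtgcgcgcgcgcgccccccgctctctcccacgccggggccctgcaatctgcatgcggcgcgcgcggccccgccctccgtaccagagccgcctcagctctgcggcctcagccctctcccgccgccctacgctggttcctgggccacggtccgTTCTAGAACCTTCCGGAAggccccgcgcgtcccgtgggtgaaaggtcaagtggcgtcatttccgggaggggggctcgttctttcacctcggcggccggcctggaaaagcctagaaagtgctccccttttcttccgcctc
Hspa1a: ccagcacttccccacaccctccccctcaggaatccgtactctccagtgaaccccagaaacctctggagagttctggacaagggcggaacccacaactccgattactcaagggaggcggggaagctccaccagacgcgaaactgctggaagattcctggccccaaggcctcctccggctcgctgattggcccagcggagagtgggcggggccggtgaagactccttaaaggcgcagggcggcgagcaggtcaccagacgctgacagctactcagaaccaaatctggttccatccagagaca
A match is a run of letters and not a measured site, and the absence of these letters in a window says nothing about binding.

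Proteins of the endoplasmic reticulum gave the gene with the smallest p in either direction. Txndc5, a disulfide isomerase of that compartment (ENSMUSG00000038991; mm10, chromosome 13, 38500079 to 38528490, minus strand, protein-coding), had 38.9, 33.1, 33.9 and 32.3 FPKM in the knockdown-labelled libraries, against 13.2, 10.8, 22.1 and 17.7 FPKM in the negative controls. The knockdown-labelled libraries lay close together and above every control. Its log2 fold change was 1.06 (SE 0.20), with an adjusted p of 0.679 (edgeR quasi-likelihood test, Benjamini-Hochberg) and 0.00231 by DESeq2. Derl2, a membrane protein that helps unfolded proteins leave this compartment for degradation, had 5.30, 6.11, 4.88 and 4.75 FPKM against 10.1, 9.77, 10.2 and 6.87 FPKM, a log2 fold change of -0.88 (SE 0.24). The list of endoplasmic reticulum folding and stress genes as a whole showed no lean: 15 of its 32 measured genes had the higher mean in the knockdown-labelled libraries, and the median log2 change was -0.01.

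Angptl8 and Fgf21, which both encode proteins that the liver secretes, had higher means in the knockdown-labelled libraries. Angptl8, a secreted inhibitor of lipoprotein lipase in muscle and heart (ENSMUSG00000047822; mm10, chromosome 9, 21835510 to 21837347, plus strand), had 141, 59.1, 65.5 and 52.1 FPKM, against 20.2, 9.65, 25.8 and 23.7 FPKM in the negative controls. The groups kept apart, with knockdown-labelled library 1 far above the others and negative-control library 2 the lowest. Its log2 fold change was 1.95 (SE 0.52), with an adjusted p of 0.995 (edgeR quasi-likelihood test, Benjamini-Hochberg). Fgf21, a liver hormone that both fasting and sugar induce, had 8.76, 6.78, 9.77 and 5.53 FPKM against 2.85, 2.84, 3.50 and 1.72 FPKM, a log2 fold change of 1.43 (SE 0.44).

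Outside the naming rule, and picked after their values were seen, G0s2, an inhibitor of adipose triglyceride lipase, had 493, 277, 153 and 182 FPKM in the knockdown-labelled libraries, against 91.6, 56.6, 136 and 85.0 FPKM in the negative controls. Pnpla2, which encodes that lipase, averaged 26.7 ± 4.6 FPKM against 38.5 ± 15.97 FPKM (SD, n = 4 each), and its libraries overlapped. Pklr, the liver pyruvate kinase, averaged 20.3 ± 7.1 FPKM against 12.2 ± 2.3 FPKM (SD, n = 4 each). In the lists as a whole, 10 of 16 genes of gluconeogenesis and insulin response and 12 of 18 genes of glycolysis and glycogen had the higher mean, where 49.0% of all genes did. Their median log2 changes were 0.12 and 0.13, against -0.0053 over all genes.

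In the fatty acid synthesis list all 14 measured genes had the higher mean in the knockdown-labelled libraries, where 49.0% of all genes lay above 0, with a median log2 change of 0.35. At an unadjusted p under 0.05, 2 of the 14 were higher, where 2.38% of all genes were. Fasn, the fatty acid synthase, had 45.0, 28.1, 20.1 and 12.3 FPKM, against 12.2, 5.69, 10.8 and 14.5 FPKM in the negative controls, a log2 fold change of 1.23 (SE 0.33). Knockdown-labelled library 4 fell within the control range. Thrsp, which goes with lipogenesis, averaged 41.1 ± 10.3 FPKM against 20.2 ± 10.5 FPKM (SD, n = 4 each). Acly, which makes cytosolic acetyl-CoA, and Acaca, the acetyl-CoA carboxylase, had log2 fold changes of 0.65 (SE 0.36) and 0.40 (SE 0.21). The size rests on few libraries: without knockdown-labelled library 1 the median was 0.19 with 12 of 14 higher, and without negative-control library 2 it was 0.23 with 13 of 14 higher. Cholesterol synthesis, measured by 20 genes, had 11 higher and a median of 0.04.

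**Figure D4:**
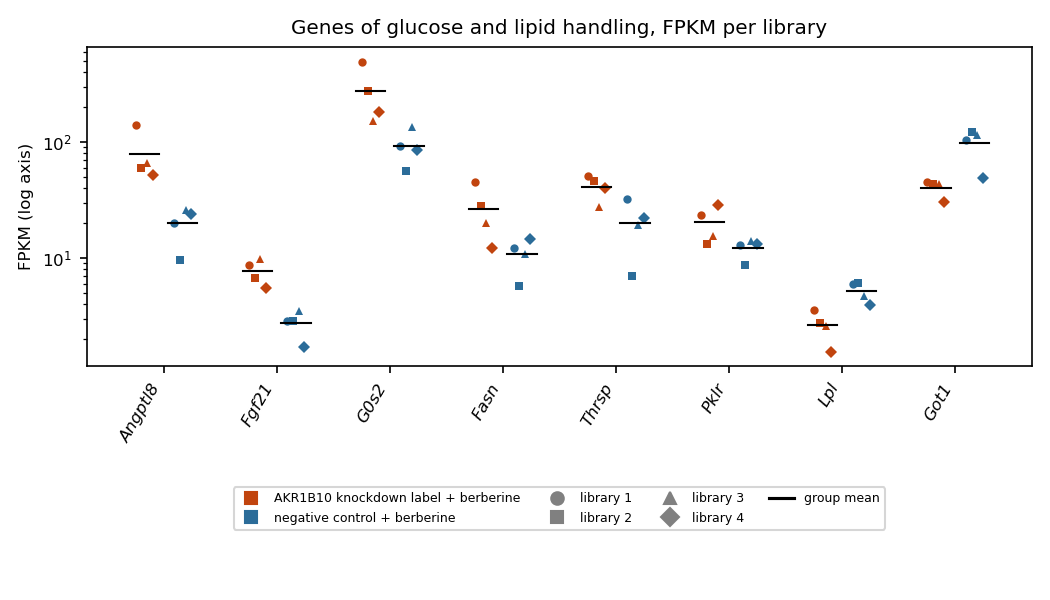
FPKM on a log axis (y axis) of 8 genes of glucose and lipid handling (x axis) in the 4 knockdown-labelled and the 4 negative-control libraries with berberine; marker shapes are library numbers and bars are group means. Angptl8, Fgf21 and G0s2 keep apart with the knockdown-labelled libraries higher, Lpl and Got1 keep apart with them lower, and Fasn, Thrsp and Pklr overlap.

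Among the genes with the lower mean, Lpl, lipoprotein lipase, which adult hepatocytes keep low (ENSMUSG00000015568; mm10, chromosome 8, 68880491 to 68906934, plus strand), had 3.57, 2.78, 2.62 and 1.56 FPKM in the knockdown-labelled libraries, against 5.97, 6.14, 4.73 and 3.95 FPKM in the negative controls. Got1, the cytosolic aspartate aminotransferase, had 44.9, 43.0, 43.8 and 30.1 FPKM, against 105, 122, 116 and 49.4 FPKM. The groups kept apart in both, although negative-control library 4 came close to the knockdown-labelled range in each. The log2 fold changes were -1.06 (SE 0.26) for Lpl and -1.35 (SE 0.36) for Got1, with an adjusted p of 0.995 for each (edgeR quasi-likelihood test, Benjamini-Hochberg). Nat8, an acetyltransferase of cysteine conjugates, averaged 5.66 ± 1.28 FPKM against 11.1 ± 1.9 FPKM (SD, n = 4 each).

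Got1 belongs to the list of urea cycle and periportal amino acid catabolism, in which 17 of 21 measured genes had the lower mean in the knockdown-labelled libraries, where 51.0% of all genes lay below 0. Of the 21, 2 were lower at an unadjusted p under 0.05, where 2.19% of all genes were. The median log2 change was -0.27. The library means of the list ran from -0.29 to -0.04 in the knockdown-labelled libraries and from 0.05 to 0.30 in the negative controls, without overlap. Slc25a15, the mitochondrial ornithine carrier, averaged 31.2 ± 7.1 FPKM against 40.4 ± 2.7 FPKM (SD, n = 4 each). Hal, which breaks down histidine, Sdsl, a relative of serine dehydratase, and Asl, the argininosuccinate lyase, had log2 fold changes of -0.50 (SE 0.25), -0.78 (SE 0.37) and -0.50 (SE 0.28). Genes of the growth hormone axis leaned the same way, with 13 of 17 lower and a median of -0.23. Cyp7b1, a sterol hydroxylase higher in male liver, had 52.8, 104, 71.7 and 46.5 FPKM against 123, 211, 89.0 and 194 FPKM, so that knockdown-labelled library 2 fell within the control range. Igf1, the growth factor made under growth hormone, averaged 41.1 ± 5.4 FPKM against 49.8 ± 4.1 FPKM (SD, n = 4 each).

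Among the remaining lists with large medians, those of acute phase and immediate early genes leaned on single libraries. Acute phase genes, which hepatocytes make in inflammation, had a median log2 change of -0.63, with 26 of 27 lower in the knockdown-labelled libraries. Saa1, serum amyloid A, had 9.31, 10.8, 62.8 and 21.8 FPKM in the knockdown-labelled libraries, against 22.4, 1691, 32.6 and 49.9 FPKM in the negative controls. Negative-control library 2 alone was high, as it was in Saa2, Orm2 and Serpina3n, and without it the median was 0.02 with 15 of 27 higher. The same library had the highest summed level of the 13 neutrophil genes listed, 23.6 FPKM, where the other negative controls began at 2.29 FPKM and the knockdown-labelled libraries ran from 2.21 to 9.23 FPKM, and its part in the acute phase difference was not tested.

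Immediate early genes, which respond within minutes to growth factors, stress or handling, had a median of 0.62 with 13 of 15 higher. Of these, 5 were higher at an unadjusted p under 0.05, where 2.38% of all genes were, and 0 were without knockdown-labelled library 3. Jun, a subunit of AP-1, had 10.8, 5.84, 100.4 and 4.03 FPKM in the knockdown-labelled libraries, against 4.19, 3.34, 6.41 and 3.15 FPKM in the negative controls. Egr1, Btg2 and Dusp1 were also highest in knockdown-labelled library 3, at 45.4, 44.5 and 38.5 FPKM. Without knockdown-labelled library 3 the median was -0.09 with 4 of 15 higher. Clock genes had a median of 0.51 with 15 of 18 higher. Of the 18, 3 were higher at an unadjusted p under 0.05, where 2.38% of all genes were. The median ran from 0.25 to 0.75 with each of the 8 libraries left out in turn, the lowest without knockdown-labelled library 4. In that library Ciart, a repressor of the clock, had 12.6 FPKM, against 0.526 to 2.51 FPKM in the other 3 knockdown-labelled libraries and 0.0485 to 1.55 FPKM in the negative controls. Bhlhe40, a repressor that the clock and hypoxia induce, kept apart, with 8.55, 6.52, 16.1 and 9.96 FPKM against 3.69, 2.10, 3.75 and 3.79 FPKM. The hour at which each liver was taken is not given in the sources used here.

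Markers of immune cells spread over the libraries more than between the groups. B and plasma cell markers had 7 of 8 measured genes higher and a median of 0.58, and 0.23 without knockdown-labelled library 3. The summed level of all 12 listed genes ran from 37.8 to 127 FPKM in the knockdown-labelled libraries and from 22.9 to 56.9 FPKM in the negative controls. Ighm, the heavy chain of IgM, averaged 7.11 ± 5.34 FPKM against 3.12 ± 1.41 FPKM (SD, n = 4 each). T and NK cell markers had 5 of 5 higher with a median of 0.35, and -0.33 without knockdown-labelled library 3, which with 34.0 FPKM had the highest sum of the 8. Kupffer cell and macrophage markers had 8 of 16 higher and a median of -0.03, endothelium 10 of 13 and 0.07, and stellate cells 6 of 16 and -0.18. Recruited macrophage markers had 2 of 6 higher and a median of -0.32, which was -0.027 with 3 of 6 higher without negative-control library 2, and -0.19 and -0.18 without negative-control library 3 and knockdown-labelled library 2. Red cell markers (4 of 5 higher, median 0.15) summed to 164 to 1086 FPKM against 294 to 496 FPKM, and neutrophil and cholangiocyte markers had only 3 measured genes each.

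**Figure D5:**
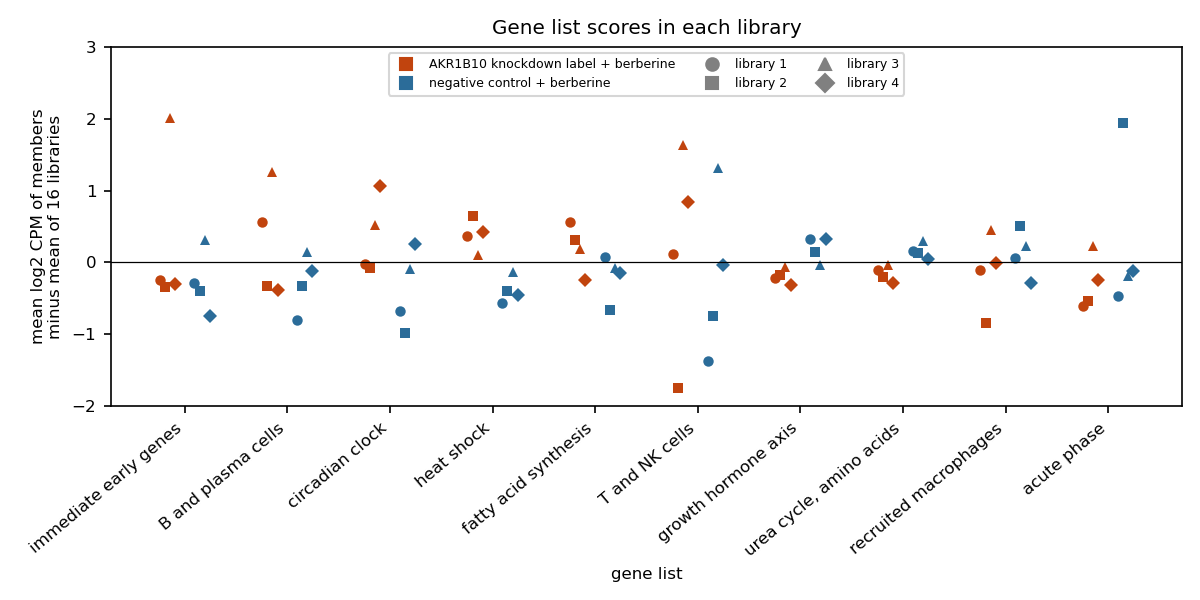
Mean log2 CPM of the measured members of 10 gene lists (x axis, ordered by median log2 change) in each library with berberine (y axis). Shown are the 4 knockdown-labelled and the 4 negative-control libraries, and marker shapes are library numbers. Values are relative to the mean over these 8 libraries, although the axis label names 16. Heat shock genes run from 0.10 to 0.65 against -0.57 to -0.13, whereas immediate early genes stand at 2.01 in knockdown-labelled library 3 alone and acute phase genes at 1.94 in negative-control library 2 alone.

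Whether the label difference with berberine departs from the label difference without it was tested as an interaction in the same fit. The second pair of groups has other libraries. In edgeR, 0 of 10846 genes (0%) were called after Benjamini-Hochberg adjustment of the quasi-likelihood p-values, with a smallest adjusted p of 0.756. At an unadjusted p under 0.05 there were 711 genes (6.56%), 294 with a difference of differences above 0 (2.71%) and 417 below (3.84%). DESeq2 called 10, of which Hspa1a is described below. Of those named by rule, Lpl had a log2 difference of differences of -1.49 (SE 0.36), Derl2 of -1.41 (SE 0.33) and Zfyve21, an endosomal protein, of -1.84 (SE 0.45), while Lsm14b, an RNA-binding protein, had 1.79 (SE 0.43) and Nectin1, an adhesion molecule, 0.94 (SE 0.24). Mup-ps22, a major urinary protein pseudogene, had -2.53 (SE 0.62), on 47 to 444 counts a library.

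Hspa8 averaged 385 FPKM in the knockdown-labelled libraries and 177 FPKM in the negative controls with berberine, and 306 and 260 FPKM without it. Hspa1a averaged 2.85 and 0.270 FPKM with berberine, and 0.947 and 4.22 FPKM without it, the opposite order. Without berberine its single values were 1.39, 1.17, 0.908 and 0.319 FPKM in the knockdown-labelled libraries, against 9.23, 6.42, 0.969 and 0.273 FPKM in the negative controls, so the ranges overlapped. Over the list, the median log2 change was 0.50 with berberine and -0.28 without it, where 15 and 3 of 18 genes lay above 0 (49.0% and 51.9% of all genes). Knockdown-labelled library 4 without berberine, the one with the high mitochondrial share, had the lowest Hspa8 of its group at 172 FPKM, where the other 3 had 297 to 429 FPKM. The libraries left out in what follows are those without berberine. Without knockdown-labelled library 4 the median in that pair was -0.17 with 4 of 18 above 0, and it was -0.44 without knockdown-labelled library 2 and -0.43 without negative-control library 4. The median difference of differences of the list was 0.72, 0.71 without knockdown-labelled library 4, and 0.58 to 0.80 over the 8 libraries left out in turn. Of the 18, 11 had a difference of differences above 0 at an unadjusted p under 0.05, where 2.71% of all genes had. Leaving out knockdown-labelled library 4 gave 9, and leaving out negative-control library 2 gave 5. The difference of differences was 0.75 (SE 0.30) for Hspa8, 5.38 (SE 1.34) for Hspa1a and 1.38 (SE 0.45) for Dnajb1, and without knockdown-labelled library 4 of the pair without berberine it was 0.59, 5.12 and 1.19. None of the 3 passed the quasi-likelihood test of edgeR for the interaction (Benjamini-Hochberg adjusted p of 0.756 for each), while DESeq2 called Hspa1a, at 5.39 (SE 1.18) with an adjusted p of 0.00997. A change of sign between the pairs was not particular to the heat shock list. The fatty acid synthesis median was 0.35 with berberine and -0.48 without it, with 14 and 2 of 14 genes above 0. The acute phase median was -0.63 and 1.18, with 1 and 22 of 27 above 0. Other lists kept their sign, such as the urea cycle list at -0.27 and -0.22. Angptl8 and Entpd8, an ectonucleotidase, had close fitted label differences in both pairs. The log2 fold changes were 1.95 and 1.96 for Angptl8 and 0.81 and 0.78 for Entpd8. The Angptl8 changes lean on 1 high library in each pair. Without berberine Angptl8 had 42.1, 47.4, 55.2 and 175 FPKM in the knockdown-labelled libraries, the highest in library 4. The negative controls of that pair had 13.3, 23.5, 33.4 and 24.5 FPKM. With berberine, knockdown-labelled library 1 had 141 FPKM and the others 52.1 to 65.5 FPKM. Across all genes the fitted label differences of the 2 pairs, which share no library, had a Pearson correlation of -0.046 and a Spearman correlation of 0.138, and 56.7% of genes had the same sign.

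The 5 genes that DESeq2 called in the comparison under berberine were named after their values were seen. Hspa8 and Txndc5 are 2 of them. Zbtb40, a zinc finger protein, averaged 1.23 ± 0.25 FPKM in the knockdown-labelled libraries and 0.585 ± 0.148 FPKM in the negative controls (SD, n = 4 each), a log2 fold change of 1.01 (SE 0.22) with an adjusted p of 0.00758 by DESeq2. Krt5, a keratin of squamous epithelium, had 139 counts in negative-control library 4 and 0 in the other 7, and Commd1b had 483 and 678 counts in negative-control libraries 2 and 4 and 0 in the other 6. Of the transcript windows of Commd1b, 94.3% occur in other genes, mainly its overlapping neighbours Commd1 and B3gnt2, and no fold is given for either gene. Tmem254a, which edgeR called only without negative-control library 2, had 2579, 1910, 732 and 2236 counts in the knockdown-labelled libraries, against 0, 539, 0 and 0 in the negative controls, and 73.7% of its windows occur in its copies Tmem254b and Tmem254c.

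Pseudogenes and retrogenes among the named genes carry the same limit. Rps27rt, a copy of the ribosomal protein gene Rps27, averaged 50.6 ± 14.6 FPKM in the knockdown-labelled libraries and 20.5 ± 6.2 FPKM in the negative controls (SD, n = 4 each), and 87.1% of its windows occur elsewhere. Rps2-ps10 averaged 2.80 ± 1.35 FPKM against 10.9 ± 8.2 FPKM (SD, n = 4 each), and 84.2% of its windows do. Fewer of the ribosomal protein genes had the higher mean than of all genes (49.0%) or of the 2170 shortest genes (39.6%), with 11 of 40 cytosolic ones (median -0.08) and 10 of 37 mitochondrial ones (median -0.11). Of the 40, 0 were lower at an unadjusted p under 0.05, and 1 of the 37 was, where 2.19% of all genes were.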

How the data were processed

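Liver poly(A) RNA of mice was sequenced as paired reads in 16 libraries, in 4 groups of 4 by their titles. Per the labels' protocols, the second strand carried dUTP, but use of the strand by the counting step is not given in the sources used here. Per the submitters' processing notes, the mm10 build was used with HISAT2 2.0.4, StringTie 1.3.4d, cutadapt 1.9, DESeq2 and edgeR. Per the file headers, the authors deposited a whole-number count and an FPKM value for each gene and library. The deposited FPKM values are per length and library total, with 0.0001 written wherever the count was 0 (554405 values, all checked). The length used need not be that of a single transcript. Counts of 4 are more frequent than counts of 5 (957 to 1283 genes against 146 to 208 in the berberine groups), so low counts are less precise than they look.

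Genes at 1 FPKM or more in 4 or more libraries entered edgeR 4.0.16 (quasi-likelihood, TMM factors, the 4 group means fitted to all 16 libraries, two-sided, Benjamini-Hochberg adjustment at 0.05). Its p-values set a group difference against the spread between libraries within groups, estimated from all 16. The AKR1B genes were compared by exact permutation of mean FPKM. Gene lists (48 lists, 949 symbols, 1 of them absent from the table, 811 tested) are described by counts and medians. For a list's level in a library, log2 CPM values (prior count 2) were averaged over its tested members. Each gene's mean over the 8 libraries with berberine was taken off first. Alternatives were median-of-ratios scaling, other filters, limma 3.58.1 on log2(FPKM + 1) and log2(FPKM + 0.1), a robust spread, a fit to the 2 berberine groups, the replicate number as a block, each of the 8 libraries left out, DESeq2 1.42.0 and, chosen after seeing the data, negative-control library 2 and knockdown-labelled library 3 left out together, and each library without berberine left out.

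The genes named are the AKR1B family; among genes with at least 5 FPKM in the higher group, an official symbol and groups that do not overlap, the 12 higher and 12 lower with the smallest p, since fewer than 4 passed; up to 4 members of each described list; and 6 genes of the interaction; 1 of the 12 higher genes is not reported here. Lists described are the 10 with the largest absolute median among those with at least 5 tested members, and the cell type lists. The members and lists were chosen with earlier results of these data known. Exons and 150-base transcript windows came from GENCODE M21 and promoters from RefSeq. The statistics were tested on simulated data; R 4.3.3 and Python 3.11.15 were used.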

Additional observations from a re-analysis of the deposited data

Results flagged for a closer look

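In 17 of 156 groups of 4 libraries examined, 1 library stood apart from the other 3 by Dixon's 95% critical value for 4 samples. Chance gives about 1 in 20 for independent and normally spread values, which these are not: the genes were named for their values, several rise in the same library, and FPKM was not put on a log scale, so the share has no chance rate to be read against. Knockdown-labelled library 3 accounts for 5 of these and negative-control library 2 for 6. In knockdown-labelled library 3, Jun had 100.4 FPKM, Egr1 45.4 FPKM and Btg2 44.5 FPKM, the immediate early list stood at 2.01 on the mean log2 scale, and Akr1b7 had 0.270 FPKM where the other 3 libraries of the group had a count of 0. In negative-control library 2, Saa1 had 1691 FPKM, Saa2 1522 FPKM, Orm2 750.1 FPKM and Serpina3n 442 FPKM, the acute phase list stood at 1.94, and Bhlhe40 was the lowest of its group at 2.10 FPKM. Angptl8 had 141 FPKM in knockdown-labelled library 1, where the other 3 had 52.1 to 65.5 FPKM. Knockdown-labelled library 4 had Ciart at 12.6 FPKM and Got1 at 30.1 FPKM, the lowest of its group. Hspa1a had 0.747 FPKM and Egr1 4.33 FPKM in negative-control library 3, each the highest of its group, and Derl2 had 6.87 FPKM in negative-control library 4, the lowest of its group.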

How the results depend on the processing

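Under alternatives, 1360 of 1375 values of single genes kept their direction and their side of the threshold, 207 of 215 list medians kept their direction and stayed within the spread between libraries (within 1.5 times for the medians without berberine and of the interaction), and 61 of 86 counts of genes stayed within 1.5 times. The count at an adjusted p under 0.05 was 5 with DESeq2, 0 to 1 with 1 library left out (1, Tmem254a, without negative-control library 2), and 1 with negative-control library 2 and knockdown-labelled library 3 left out; in the interaction it was 10, 0 to 1 and 1. The count at an unadjusted p under 0.05 was 1317 of 30801 genes without a filter, 215 of 5069 at an FPKM of 5, 774 in the fit to the 2 berberine groups, 795 without knockdown-labelled library 4 of the pair without berberine, 308 without both berberine libraries named above, and 286 to 750 with 1 library left out, the lowest without negative-control library 2 and the highest without negative-control library 4. In limma on log2(FPKM + 1) and log2(FPKM + 0.1) the higher share of these genes was 73.7% and 74.6%, against 52.0%. Genes kept apart numbered 203 at an FPKM of 5 and 657 to 1247 with 1 library left out, where fewer libraries have to keep apart. Same-numbered libraries did not deviate together (correlations of -0.010, -0.107, -0.051 and -0.166). Libraries with different numbers ran from -0.146 to 0.196, so correlations of this size cannot decide whether the numbers pair anything. With the replicate block the counts were 0 and 504. Directions turned, as log2 changes, without negative-control library 2 for Orm2 (0.29), Cd9 (0.045) and the acute phase median (0.019); without knockdown-labelled library 3 for Btg2 (-0.34), Ccl5 (-0.50), Trbc2 (-0.33), the T and NK cell median (-0.33) and the immediate early median (-0.090); without both for Btg2 (-0.21), Trbc1 (-0.098), Ccl5 (-0.57), Trbc2 (-0.53) and the same 2 medians (-0.53 and -0.17); with a pseudocount of 0.1 for Ccl5 (-0.014) and Trbc2 (-0.012); and with the replicate block in the fit to 2 groups for Ccl5 (-0.044) and Trbc2 (-0.023). With 1 library left out the ranges of these ended, on the other side, at -4.18 for Orm2, 2.38 for Btg2, 0.74 for Ccl5, 0.81 for Trbc2, -0.39 for Cd9, and for the medians at -0.82 for acute phase, 1.23 for T and NK cells and 0.88 for immediate early genes. Leaving out the libraries without berberine in turn, chosen after seeing the data as was the pair above, gave 517 to 1538 genes at an unadjusted p under 0.05 in the interaction, the highest without knockdown-labelled library 2 of that pair, against 711; edgeR called 1, 4632415L05Rik, without its knockdown-labelled library 1 and 0 without each of the other 7. The cause was not tested. No T and NK cell marker was left at an FPKM of 5.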

Other observations

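Of the lists not described above, some leaned higher or lower and others lay near the background. Over all genes, 49.0% lay above 0 and 51.0% below. Complement and coagulation genes had the lower mean in the knockdown-labelled libraries in 32 of 33 cases (median log2 change -0.21). That list was highest in negative-control library 2, at 0.34 on the mean log2 scale. Nuclear genes of the respiratory chain had the lower mean in 32 of 38 (median -0.13), while 11 of 13 mitochondrially encoded genes had the higher mean (median 0.20). At an unadjusted p under 0.05, 0 of the 38 and 0 of the 13 differed, where 4.57% of all genes did. Interferon response genes had the higher mean in 20 of 26 cases (median 0.22), fatty acid oxidation genes in 16 of 35 (median -0.02) and cytochrome P450 genes in 10 of 23 (median -0.01). Among nuclear receptors, Nr1i2, the pregnane X receptor, had 38.8, 40.3, 44.5 and 48.1 FPKM in the knockdown-labelled libraries, against 26.7, 22.2, 38.6 and 28.3 FPKM in the negative controls, and kept apart in FPKM but not in CPM. Decr2, a peroxisomal reductase of unsaturated fatty acid breakdown, had 85.9, 78.6, 78.6 and 86.8 FPKM against 51.6, 32.9, 61.2 and 51.4 FPKM, a log2 fold change of 0.69 (SE 0.21).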
